A study of Mus musculus with 12 samples.

Results

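The 35 genes described here encode the core machinery of macroautophagy. They were picked by symbol as known parts of the pathway, and each was present among the 24982 gene symbols measured. The cells were splenic B lymphocytes of mice at 6 weeks of age, in 3 genotypes with 4 libraries each, which the labels call biological replicates. The first group was WT (C57BL/J6). The second was Eμ-Myc, a strain in which a Myc transgene is driven in the B lineage by an immunoglobulin heavy-chain enhancer. The third was Eμ-Myc; PRPS2 KO, called PRPS2 KO below, which carries the same transgene and lacks PRPS2, an enzyme that makes the ribose donor PRPP for nucleotide synthesis. No group that lacks PRPS2 without the transgene was analysed here, and whether a library is 1 mouse or a pool is not given in the sources used here. The series compared Eμ-Myc with WT to catalogue expression that follows deregulated Myc, and PRPS2 KO with Eμ-Myc to ask whether loss of PRPS2 touches that expression.

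Macroautophagy encloses cytoplasm in a double membrane and delivers it to the lysosome. The ULK1 kinase complex starts the process, a class III PI3-kinase complex then marks the membrane with PI3P, and WIPI proteins, ATG2 and ATG9 bring lipid to the growing membrane. A pair of ubiquitin-like conjugation systems attach LC3 and GABARAP proteins to that membrane, and cargo receptors link those proteins to what is degraded. In B cells the pathway is known mainly for its part in the survival of memory B cells and plasma cells, and its inhibition has been studied as a therapy in MYC-driven mouse lymphoma. All values below are RNA levels, and autophagic flux was not measured.

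Values are gene-level sequencing coverage divided by 1 factor per library, called scaled coverage. Summed over all genes, coverage was 1277305.5 to 1885768.9 in a library, and the read depth behind it is unknown. The label check held for both engineered genes: Prps2 was at 16.2 to 18.3 in the PRPS2 KO libraries against 198 to 287 in Eμ-Myc, and Myc was at 1557 to 2302 in Eμ-Myc against 226 to 346 in WT. B-cell markers were present in every library, with 8 of 8 at or above 1 and a sum of 6547 to 12801. Other cells were present too, and unevenly. The summed coverage of 9 T-cell markers was 531 to 3086 in WT, 109 to 156 in Eμ-Myc, 647 and 714 in PRPS2 KO libraries 1 and 2, and 33.8 and 30.5 in libraries 3 and 4. The 9 myeloid markers summed to 8446 to 25592 in WT, with the highest value in library 1, to 10433, 17498, 6974 and 5995 in Eμ-Myc libraries 1 to 4, and to 16001, 11971, 3115 and 1370 in PRPS2 KO libraries 1 to 4. The 6 NK markers summed to 338 to 1429 in WT, 91.9 to 237 in Eμ-Myc, 552 and 426 in PRPS2 KO libraries 1 and 2, and 23.9 and 21.2 in libraries 3 and 4. Within Eμ-Myc, library 4 had the lowest T-cell, NK and myeloid sums and also the lowest median over the autophagy genes (-0.41, log2 against the WT mean), and the part of those cells in that median was not tested. The sums of 8 erythroid, 5 plasma-cell and 4 platelet markers ran from 64.7 to 718, from 106 to 653 and from 31.9 to 376 over the 12 libraries. In PRPS2 KO libraries 1 to 4 the plasma-cell sum was 382, 462, 106 and 106, with Jchain at 184, 234, 2.0 and 2.44. No marker of these lists was at 0 in all libraries of any group. PRPS2 KO libraries 3 and 4 also had more Myc, at 3018 and 3282, than libraries 1 and 2, at 1099 and 1719. The results below are therefore also given without the libraries that stood apart.

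**Figure D1:**
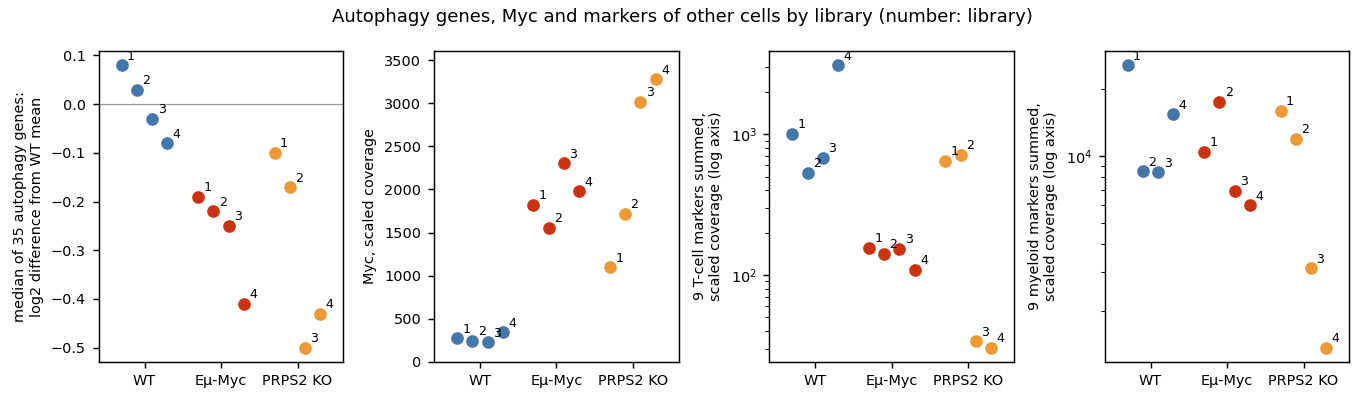
From left to right, each point is 1 library: the median over 35 autophagy genes of the log2 difference from the WT mean, the scaled coverage of Myc, and the summed scaled coverage of 9 T-cell and of 9 myeloid markers (log axes). Position within a group only separates libraries 1 to 4. The autophagy median lies between -0.08 and 0.08 in WT, between -0.41 and -0.19 in Eμ-Myc, and at -0.10, -0.17, -0.50 and -0.43 in PRPS2 KO, where libraries 3 and 4 hold the most Myc and the fewest T-cell and myeloid markers.

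Eμ-Myc samples of splenic B cells, which held other cells too, had lower RNA of part of the autophagy machinery than WT samples. Of 35 genes, 13 fell and 2 rose: FIP200 (Rb1cc1), Ulk2, Uvrag, Atg9a, Atg4d, Atg12, Atg16l1, Atg16l2, Gabarap, Gabarapl2 and the cargo receptors Nbr1, Optn and Tax1bp1 fell, and Atg101 and Wipi2 rose. The changes were small, with log2 fold changes of -0.70 to 0.53. The median over the 35 genes was -0.27, beside -0.01 over all 12704 genes tested. A gene was called when its adjusted p (limma, two-sided, Benjamini-Hochberg over all genes tested) was under 0.05, and all 35 genes passed the filter on low values.

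The transgene went with a change in much of the transcriptome, so the counts are read against that background. In this comparison 55.2% of all genes tested were called, 30.5% higher and 24.7% lower. Of the autophagy genes, 42.9% were called, 5.71% higher and 37.1% lower. At an unadjusted p under 0.05 there were 19 autophagy genes, and 60.8% of all genes. The 4 Eμ-Myc libraries lay wholly below the 4 WT libraries for 10 of the 35 genes, against 22.8% of all genes, and wholly above for 1, against 28.7%, where the groups of 51.5% of all genes did not overlap in either direction. A lower value in these bulk samples can come from fewer cells of a type or from less RNA per cell, which cannot be told apart. All 9 T-cell markers and 6 of 6 NK markers fell in the same comparison, with median log2 fold changes of -2.99 and -2.13, while 0 of 9 myeloid markers and 1 of 8 B-cell markers (lower) were called. Among the other lists, 0 of 7 erythroid, 3 of 5 plasma-cell (1 higher, 2 lower) and 1 of 4 platelet markers (lower) were called. Without WT libraries 1 and 4, which held the highest T-cell, NK and myeloid sums of their group, 14 autophagy genes and 50.7% of all genes were called, the 14 with 1 higher and 13 lower, and the median was -0.25. That choice was made after seeing the data. Wipi2, Atg9a, Atg4d and Atg16l1 were not among those 14, and Ambra1, Pik3r4 and Gabarapl1 were. Without Eμ-Myc library 4, 9 autophagy genes were called, 1 higher and 8 lower, and 46.6% of all genes.

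**Figure D2:**
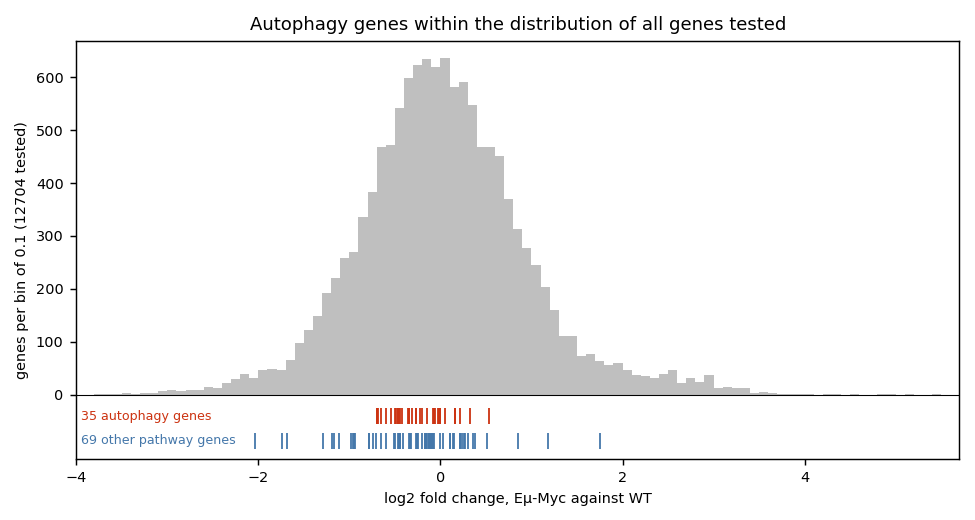
Histogram of the log2 fold change of 12704 genes in Eμ-Myc against WT, in bins of 0.1. The ticks beneath are the 35 autophagy genes, between -0.70 and 0.53, and 69 other genes of the pathway, between -2.04 and 1.75.

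**Figure D3:**
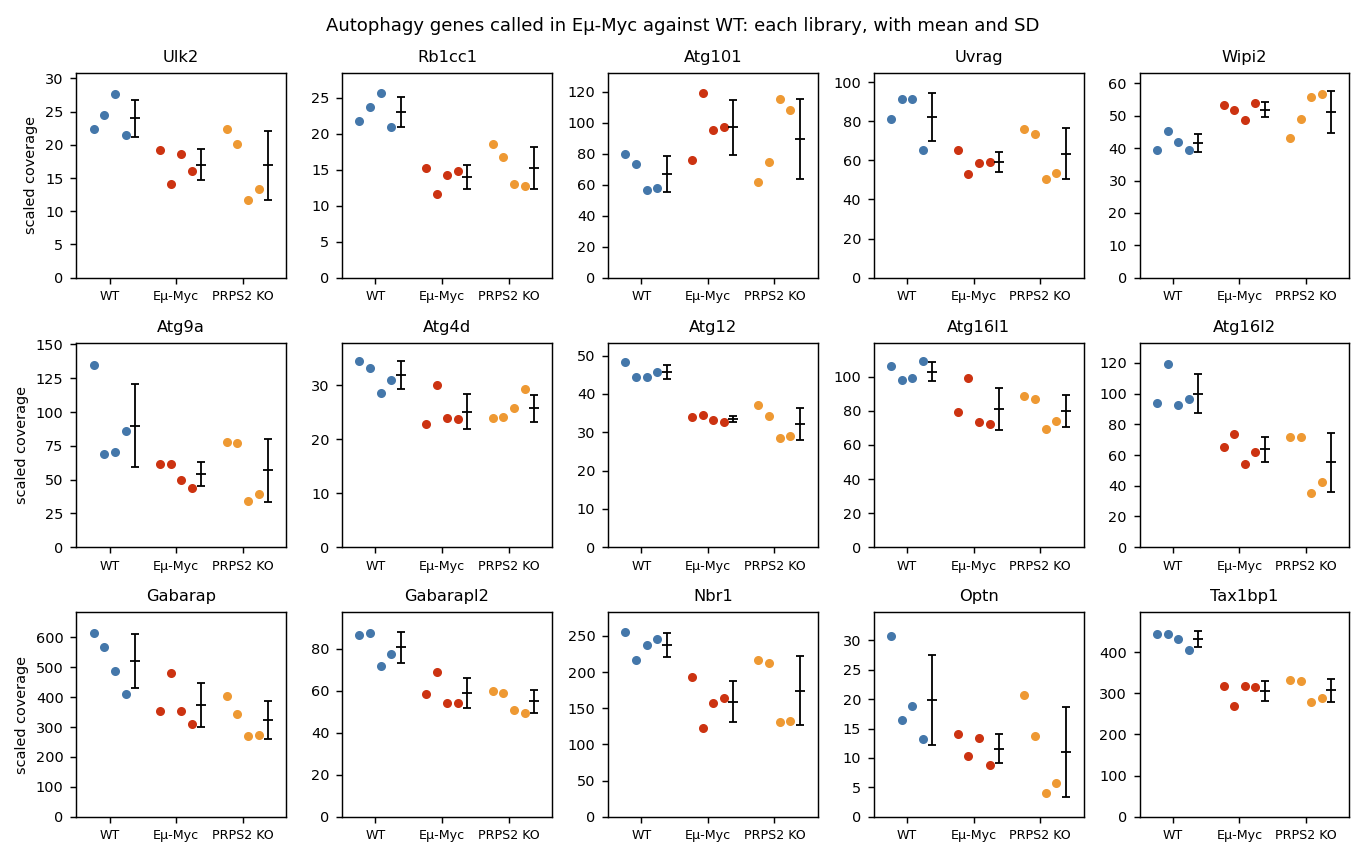
Scaled coverage of the 15 autophagy genes called in Eμ-Myc against WT. Each point is 1 library, in the order 1 to 4 within a group, with the group mean and SD (n = 4) at its right and all axes starting at 0. The Eμ-Myc points lie below every WT point for 9 genes and above for Wipi2, with 1 or more libraries overlapping for Atg101, Atg4d, Atg16l1, Gabarap and Optn.

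The values of each called gene in each library are given next. Counts by role stand beside the 55.2% of all genes called in this comparison, 30.5% higher and 24.7% lower. This was decided after the values were seen, since no autophagy gene called in Eμ-Myc against WT reached the log2 fold change of 0.8 that the rule asked for in that comparison.

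In the ULK1 complex, 2 of 5 genes fell and 1 rose. Rb1cc1 encodes FIP200, the scaffold on which the complex assembles, and lies on chromosome 1, 6214634 to 6276375 (GRCm38.p6). Its scaled coverage was 21.7, 23.7, 25.6 and 20.9 in WT and 15.2, 11.6, 14.2 and 14.8 in Eμ-Myc. Every Eμ-Myc library was below every WT library, and Rb1cc1 fell by 0.70 on the log2 scale (SE 0.13, limma adjusted p = 0.0017). Ulk2, a kinase related to Ulk1, was at 22.4, 24.5, 27.7 and 21.5 in WT and at 19.2, 14.1, 18.6 and 16.1 in Eμ-Myc. The groups again did not overlap (-0.49, SE 0.14, limma adjusted p = 0.0156). Atg101, which stabilises Atg13 in the complex, went the other way, with 79.9, 73.1, 56.6 and 58.2 in WT and 76.2, 119, 95.6 and 97.1 in Eμ-Myc. It rose by 0.53 (SE 0.16, limma adjusted p = 0.0200), although Eμ-Myc library 1 lay below WT library 1. The calls of Ulk2 and Atg101 were lost without WT library 3 (limma adjusted p = 0.0512 and 0.0566) and with all 12 libraries in 1 fit (limma adjusted p = 0.073 and 0.0646). Ulk1 itself, the main starting kinase, was at -0.02 (SE 0.18) and Atg13, its regulatory partner, at -0.20 (SE 0.10), and neither was called.

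Of the 6 genes of the class III PI3-kinase complexes, only Uvrag was called. Uvrag encodes the subunit that takes the place of Atg14 in the complex acting on endosomes and late autophagosomes. It was at 80.9, 91.4, 91.4 and 65.4 in WT and at 65.3, 53.2, 58.8 and 59.0 in Eμ-Myc. The highest Eμ-Myc library was just under the lowest WT library, and Uvrag fell by 0.47 on the log2 scale (SE 0.13, limma adjusted p = 0.0122). The catalytic subunit Pik3c3 was at 0.22 (SE 0.09, limma adjusted p = 0.0673) and its regulatory subunit Pik3r4 at -0.42 (SE 0.18, limma adjusted p = 0.0781). Beclin 1 (Becn1), the shared core subunit, was at 0.05 (SE 0.11), with 363 to 479 in WT and 397 to 451 in Eμ-Myc. Atg14, which targets the complex to new autophagosomes, was at -0.07 (SE 0.14), and Ambra1, which binds Beclin 1, was at -0.27 (SE 0.11, limma adjusted p = 0.0664).

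Among the 5 genes for PI3P readers, lipid transfer and ATG9, 1 rose and 1 fell. Wipi2, the PI3P reader that recruits the Atg16l1 complex, lies on chromosome 5, 142629533 to 142669672. It was at 39.4, 45.3, 42.0 and 39.4 in WT and at 53.2, 51.8, 48.6 and 53.9 in Eμ-Myc. All Eμ-Myc libraries exceeded all WT libraries (0.32, SE 0.09, limma adjusted p = 0.0166). With total coverage as the scaling, however, its value was 0.14 (limma adjusted p = 0.299), and the call was also lost without Eμ-Myc library 4 (limma adjusted p = 0.0558). Atg9a, the multispanning membrane protein of the vesicles that seed autophagosomes, was at 135, 68.9, 70.7 and 85.9 in WT and at 61.6, 61.4, 49.7 and 43.5 in Eμ-Myc. It fell by 0.69 (SE 0.22, limma adjusted p = 0.0229), with WT library 1 far above the rest, and the call was lost without Eμ-Myc library 3 or 4 (limma adjusted p up to 0.0632) and with all 12 libraries in 1 fit (limma adjusted p = 0.0771). The lipid-transfer genes Atg2a and Atg2b were at -0.27 (SE 0.11) and 0.16 (SE 0.20), and Wipi1, another PI3P reader, at -0.31 (SE 0.59). None of these 3 was called, although every Eμ-Myc library lay below every WT library for Atg2a, and Wipi1 had the widest spread, with 18.4, 2.06, 2.54 and 6.49 in WT.

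Of the 11 genes of the conjugation machinery 4 fell and 0 rose. Those that fell were Atg12, both Atg16l genes and the protease Atg4d, and none of the E1-like and E2-like enzymes was called. Atg12, the ubiquitin-like protein joined to Atg5, had groups that stood well apart, with 48.4, 44.4, 44.4 and 45.8 in WT and 34.1, 34.4, 33.1 and 32.6 in Eμ-Myc. It fell by 0.44 (SE 0.09, limma adjusted p = 0.00235). Atg16l1, which places the Atg12-Atg5 conjugate on the membrane, was at 106, 97.9, 99.1 and 109 in WT and at 79.5, 99.3, 73.3 and 72.3 in Eμ-Myc. It fell by 0.36 (SE 0.12, limma adjusted p = 0.0275), with Eμ-Myc library 2 inside the WT range. The call was lost without WT library 1 or 4 or Eμ-Myc library 1, 3 or 4 (limma adjusted p up to 0.0846). Its relative Atg16l2 was at 94.0, 119, 92.3 and 96.3 in WT and at 65.4, 73.5, 54.1 and 61.9 in Eμ-Myc. The groups did not overlap (-0.65, SE 0.13, limma adjusted p = 0.00187).

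Atg4d, one of the proteases that process LC3 and GABARAP, was at 34.4, 33.2, 28.5 and 31.0 in WT and at 22.8, 30.0, 24.0 and 23.8 in Eμ-Myc. It fell by 0.34 (SE 0.12, limma adjusted p = 0.0418), and 8 of 16 alternatives did not call it, among them those without WT library 1, 2 or 4 or Eμ-Myc library 1, 3 or 4 (limma adjusted p up to 0.104). The other proteases Atg4a, Atg4b and Atg4c were at -0.03 (SE 0.15), 0.00 (SE 0.09) and -0.08 (SE 0.22). The E1-like enzyme Atg7 and the E2-like enzymes Atg3 and Atg10 were at -0.06 (SE 0.24), -0.15 (SE 0.18) and -0.01 (SE 0.14). Atg5, the acceptor of Atg12, was at 0.16 (SE 0.09). None of these 7 genes was called, and Atg4b is the most narrowly bounded of them, with a 95% interval of -0.20 to 0.20. For Atg3 and Atg7 the spread came from WT library 1, at 275 and 104 against 158 to 162 and 48.3 to 55.8 in the other WT libraries. That library also had the highest myeloid marker sum, 25592, and the part of those cells in these values was not tested.

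Atg3, Atg5 and Atg7 among these conjugation genes, and Atg14, carried the E-box CACGTG, the site bound by MYC-MAX and by TFEB among other factors. The E-box was searched on both strands in RefSeq promoters (GRCm38.p6, 250 bases before to 50 after the start), which were matched for 29 of the 35 genes. Rb1cc1, Becn1, Pik3c3, Atg12, Atg16l1 and Map1lc3a had no match and were not searched. Of these, Rb1cc1, Atg12, Atg16l1 and Map1lc3a were called lower in 1 or more comparisons. It was found in 4 of 29 genes (13.8%) and in 8.09% of all 27025 genes in the table. With all libraries, none of these 4 genes was called in any of the 3 comparisons, and nothing is drawn from that. The stretches that hold the E-box are shown with capitals marking it, each written 5′ to 3′ on the gene's own strand:
Atg14 (chr14:47568430-47568462, minus strand): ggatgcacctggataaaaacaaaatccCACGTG
Atg3 (chr16:45158708-45158790, plus strand): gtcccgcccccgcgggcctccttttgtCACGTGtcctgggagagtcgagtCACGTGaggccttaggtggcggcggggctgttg
Atg5 (chr10:44268298-44268338, plus strand): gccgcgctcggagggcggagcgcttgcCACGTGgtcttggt
Atg7 (chr6:114670937-114670996, plus strand, before a start inside the gene): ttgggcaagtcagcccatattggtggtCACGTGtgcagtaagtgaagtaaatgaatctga
The CLEAR element of lysosomal and autophagy genes, searched as the E-box with GT before and AC after it, was found in 0 of 29 genes and in 0.37% of all genes. The forkhead element TGTTTAC was found in 0 of 29 and in 4.05% of all genes. A match is a description of letters in these windows and not a measured site.

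All 5 LC3 and GABARAP genes had lower means in Eμ-Myc than in WT under each of 3 scalings, and 2 of them fell. These are the proteins that are joined to the autophagosome membrane. Gabarap (chromosome 11, 69991370 to 69994949) was at 615, 568, 486 and 409 in WT and at 353, 482, 352 and 311 in Eμ-Myc. It fell by 0.47 (SE 0.17, limma adjusted p = 0.0367), with Eμ-Myc library 2 inside the WT range, as for Atg16l1. That library had the highest myeloid marker sum of its group, 17498, and the part of those cells in these values was not tested. The call was lost in 7 of 16 alternatives, among them those without WT library 1, 2 or 3 or Eμ-Myc library 1, 3 or 4 (limma adjusted p up to 0.102). Gabarapl2 was at 86.3, 87.4, 71.6 and 77.4 in WT and at 58.2, 69.0, 54.2 and 54.2 in Eμ-Myc. Its groups did not overlap (-0.45, SE 0.11, limma adjusted p = 0.00824). Map1lc3a was at 71.5, 44.0, 40.5 and 35.2 in WT and at 30.7, 45.2, 36.1 and 19.7 in Eμ-Myc (-0.54, SE 0.28, limma adjusted p = 0.13). Map1lc3b, the LC3 form most used as an autophagosome marker, was at 253, 188, 166 and 164 in WT and at 156, 210, 160 and 136 in Eμ-Myc (-0.22, SE 0.17, limma adjusted p = 0.312). Gabarapl1 was at 29.1, 32.5, 33.4 and 20.8 in WT and at 25.7, 19.9, 24.9 and 19.7 in Eμ-Myc (-0.34, SE 0.17, limma adjusted p = 0.121). In the last 3 genes the groups overlapped and none passed the test. With total coverage as the scaling, however, all 3 were called lower: Map1lc3a (-0.72, limma adjusted p = 0.0422), Map1lc3b (-0.40, limma adjusted p = 0.0487) and Gabarapl1 (-0.52, limma adjusted p = 0.0477). Gabarapl1 was also called without WT library 4 (-0.49, limma adjusted p = 0.0182). Single libraries moved the other values: Map1lc3a was at -0.33 without WT library 1 and -0.32 without Eμ-Myc library 4, and Map1lc3b at -0.08, -0.13 and -0.34 without WT library 1, Eμ-Myc library 4 or Eμ-Myc library 2. These paralogs are alike in sequence, and how reads shared between them and related copies were counted is not given in the sources used here.

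The 3 cargo receptors all fell. Tax1bp1, a ubiquitin-binding receptor, lies on chromosome 6, 52713692 to 52766780, and was at 445, 445, 433 and 405 in WT and at 318, 270, 318 and 316 in Eμ-Myc. Its groups stood well apart (-0.50, SE 0.09, limma adjusted p = 0.00153). Nbr1, which binds ubiquitinated aggregates and peroxisomes, lies on chromosome 11, 101552107 to 101581951, and was at 255, 216, 237 and 246 in WT and at 193, 123, 157 and 164 in Eμ-Myc (-0.60, SE 0.14, limma adjusted p = 0.00489). Its groups did not overlap either. Optn, known for damaged mitochondria and bacteria as cargo, was at 30.8, 16.5, 18.8 and 13.2 in WT and at 14.0, 10.4, 13.4 and 8.79 in Eμ-Myc. It fell by 0.70 (SE 0.26, limma adjusted p = 0.0436) with 2 Eμ-Myc libraries above the lowest WT library, and 8 of 15 alternatives did not call it, among them those without WT library 1, 2 or 3 or Eμ-Myc library 2, 3 or 4 (limma adjusted p up to 0.113).

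**Figure D4:**
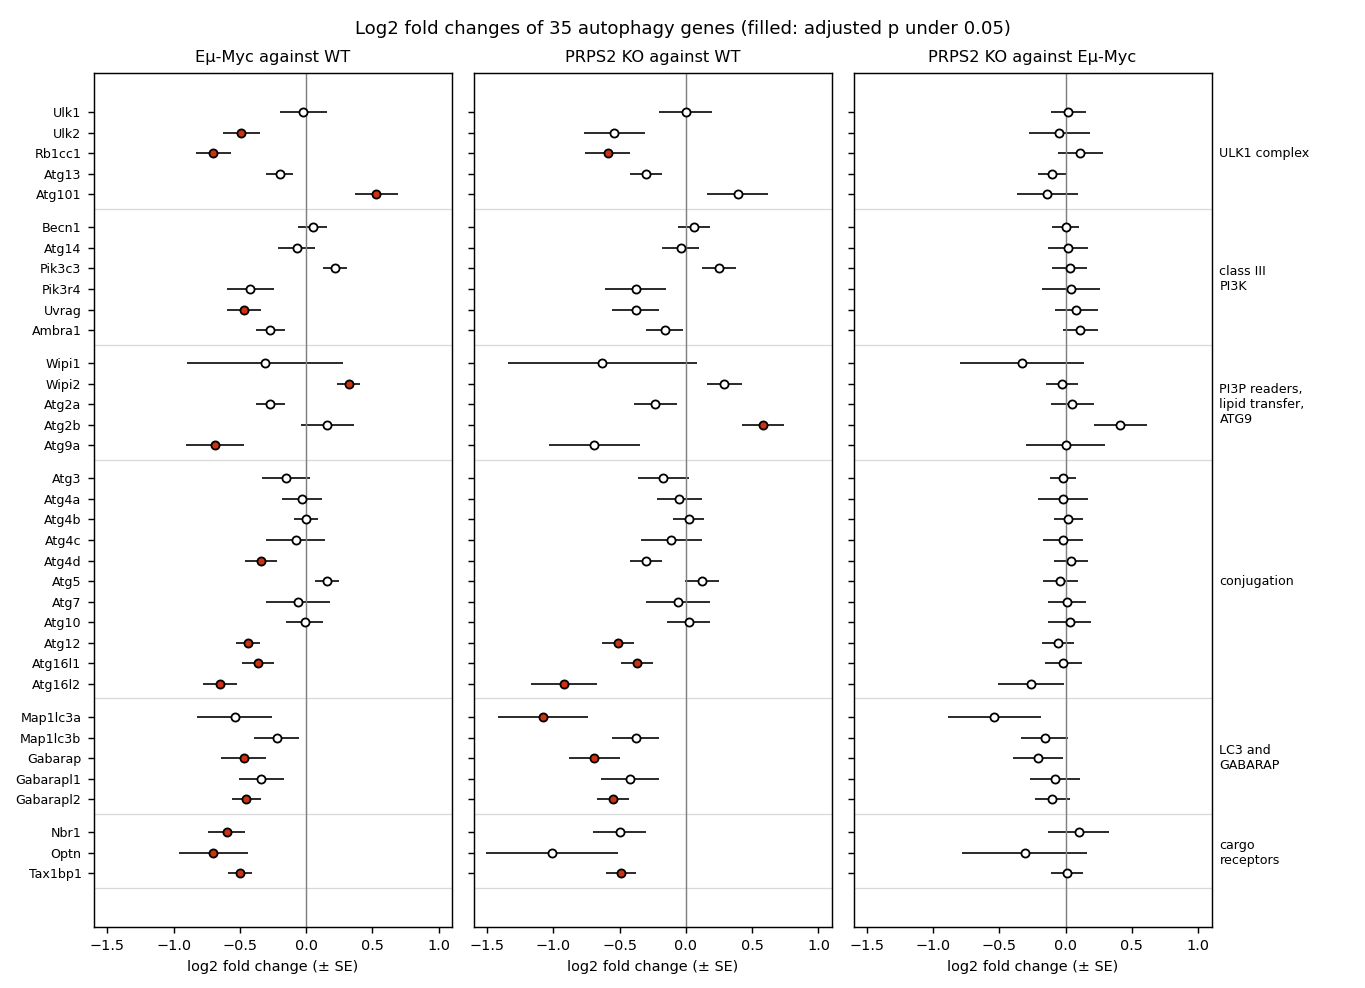
Log2 fold change of the 35 autophagy genes, grouped by role, in 3 comparisons, each point with its standard error (limma, 4 libraries per group). Filled points passed an adjusted p under 0.05: 15 genes in Eμ-Myc against WT, 9 in PRPS2 KO against WT and 0 in PRPS2 KO against Eμ-Myc, where the points gather around 0.

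For 7 of the 15 called genes the call held in every alternative run. They were Rb1cc1, Uvrag, Atg12, Atg16l2, Gabarapl2, Nbr1 and Tax1bp1. Besides the LC3 and GABARAP genes, 5 uncalled genes were called in some alternatives. Atg13, Pik3r4, Ambra1 and Atg2a were called lower with median-of-ratios scaling (limma adjusted p = 0.0412, 0.0496, 0.0314 and 0.0327) and with total coverage (limma adjusted p = 0.0157, 0.0397, 0.0231 and 0.0142). Without WT library 1, Atg13, Pik3r4 and Ambra1 were called lower (limma adjusted p = 0.0447, 0.0483 and 0.029), and at a minimum of 10 in every library Atg2a was (limma adjusted p = 0.0475). Pik3c3 was called higher without WT library 2 or Eμ-Myc library 2 (limma adjusted p = 0.0487 and 0.0334). In 7 of the 35 genes an exon overlaps, on the opposite strand, an exon of another measured gene (GENCODE M21), and whether counting used strand is not given in the sources used here. Among the called genes, Atg16l2 overlaps Fchsd2, a gene that fell from a mean of 169 to 43.9 (-1.93, SE 0.22, limma adjusted p = 9.03e-05). Reads of the pair could not be told apart without strand, and the part of Fchsd2 in the fall of Atg16l2 was not tested. The partners of Atg9a and Atg4d were at -0.06 (Ankzf1, SE 0.09) and -0.12 (Kri1, SE 0.10) and were not called.

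Of 69 other autophagy-related genes tested, 29 (42.0%) were called in Eμ-Myc against WT, 7 higher (10.1%) and 22 lower (31.9%), with a median of -0.17, beside the 55.2% of all genes called, 30.5% higher and 24.7% lower. The shares called in the lists of cargo receptors and upstream regulators, 53.3% and 52.0%, were near that of all genes. Among cargo receptors outside the 35 genes, 8 of 15 were called, 2 higher and 6 lower. Retreg1, a receptor for endoplasmic reticulum, fell from a mean of 427 to 133 (-1.69, SE 0.12, limma adjusted p = 5.18e-06). The endoplasmic reticulum receptor Ccpg1 fell by 1.11 (SE 0.31, limma adjusted p = 0.0133; 0.0813 with all 12 libraries in 1 fit) and the receptor Calcoco1 by 0.98 (SE 0.12, limma adjusted p = 0.000109). Sqstm1, the p62 receptor, named here after its values were seen, fell from 449 to 517 across WT libraries to 276 to 338 across Eμ-Myc libraries (-0.65, SE 0.10, limma adjusted p = 0.000411). Phb2, a mitochondrial prohibitin with a receptor role, rose from 246 to 562 (1.18, SE 0.12, limma adjusted p = 4.07e-05), and Bcl2l13 rose by 0.38 (SE 0.13, limma adjusted p = 0.0343) in a call that 11 of 16 alternatives did not make.

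Of 25 upstream regulators, 3 rose and 10 fell. Bcl2, which binds and restrains Beclin 1 besides its role in survival, fell the furthest of them, from a mean of 54.2 to 12.7 (-2.04, SE 0.16, limma adjusted p = 1.24e-05). Foxo1, a transcription factor known to activate autophagy genes, fell from 106 to 42.3 (-1.29, SE 0.17, limma adjusted p = 0.000182), and Rubcnl, which promotes autophagosome maturation, by 1.19 (SE 0.23, limma adjusted p = 0.00184). The genes that rose were Deptor (0.85, SE 0.20, limma adjusted p = 0.00544), an inhibitor of mTORC1, the kinase complex that restrains autophagy, its activator Rheb (0.51, SE 0.10, limma adjusted p = 0.00251) and its subunit Akt1s1 (0.36, SE 0.13, limma adjusted p = 0.0374). The call of Akt1s1 was lost in 10 of 16 alternatives. The list's other genes of mTORC1 and its inputs, named after their values were seen, did not move as 1 group. The core subunits Mtor, Rptor and Mlst8 were at 0.30, 0.27 and 0.21 (limma adjusted p = 0.227, 0.137 and 0.149), and the inhibitors Tsc1 and Tsc2 at -0.41 and -0.16 (limma adjusted p = 0.0943 and 0.305), none of them called. Mtor and Rptor were called higher without Eμ-Myc library 2 (limma adjusted p = 0.0436 and 0.0256), Mlst8 higher without WT library 1 (limma adjusted p = 0.0402) or WT libraries 1 and 4 (limma adjusted p = 0.0275), and Tsc1 lower with total coverage as the scaling (limma adjusted p = 0.0467). The stress-induced inhibitors of mTORC1 signalling fell: Ddit4 by 0.96 (limma adjusted p = 0.00107), Sesn1 by 0.95 (limma adjusted p = 0.000574), Sesn2 by 0.94 (limma adjusted p = 0.0287) and Sesn3 by 0.60 (limma adjusted p = 0.0357). The Sesn1 call held in all 16 alternatives. That of Ddit4 was lost with all 12 libraries in 1 fit (limma adjusted p = 0.0876), as were those of Sesn2 and Sesn3 (0.157 and 0.131). The Sesn2 call was also lost without WT library 1 or 3 or Eμ-Myc library 2, 3 or 4, and the Sesn3 call without WT library 3 or 4 or Eμ-Myc library 1, 2 or 3. Of the related transcription factors of lysosomal and autophagy genes, both named after their values were seen, Tfe3 fell from a mean of 197 to 120 (-0.71, SE 0.22, limma adjusted p = 0.0201). That call was lost without Eμ-Myc library 3 or 4 (limma adjusted p = 0.0537 and 0.0528) and with all 12 libraries in 1 fit (limma adjusted p = 0.103). Tfeb was at -0.35 (SE 0.17, limma adjusted p = 0.113) and was not called, but it was called lower with total coverage as the scaling (-0.53, limma adjusted p = 0.022), with the replicate number as a block (limma adjusted p = 0.0324), without WT library 4 (-0.49, limma adjusted p = 0.0232) and without WT libraries 1 and 4 (-0.55, limma adjusted p = 0.0283).

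In autophagosome formation outside the 35 genes, 4 of 15 were called (26.7%, beside 55.2% of all genes). Atg9b, the rarer ATG9 gene, rose from 0.187 to 0.628 across WT libraries to 1.99 to 3.29 across Eμ-Myc libraries (1.75, SE 0.24, limma adjusted p = 0.000247), while Atg9a fell. All 4 WT libraries were under the filter's minimum of 1, so Atg9b was tested only through the group where it is high. Nothing is drawn from its p-value or from its place among the higher calls above. Tecpr1, which binds the Atg12-Atg5 conjugate, fell by 1.74 (SE 0.33, limma adjusted p = 0.00196), with 280 in WT library 4, the library with the most T-cell markers, and 91.8 to 112 in the other WT libraries. The part of T cells in its value was not tested. Zfyve1 and Sh3glb1 fell by 0.46 (SE 0.10) and 0.44 (SE 0.11). In fusion with the lysosome, 4 of 14 genes were called (28.6%, beside 55.2% of all genes). The adaptors Fyco1 and Plekhm1 fell by 0.79 (SE 0.20) and 0.78 (SE 0.13), and the tethering subunit Vps11 fell by 0.32 (SE 0.08). The SNARE Ykt6 rose by 0.26 (SE 0.10) in a call that 11 of 16 alternatives did not make.

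Loss of PRPS2 on the Eμ-Myc background moved none of the 35 autophagy genes past the test. With limma, 0 of 35 were called, and 0 had an unadjusted p under 0.05. Over all 12535 genes tested 1 gene was called (0.00798%), Prps2 itself, and 0.957% passed without adjustment. That share is below the fraction of 0.05 that chance alone gives at this cutoff, so p-values ran high in this comparison. The absence of calls does not show that the groups were alike. The 35 genes had a median of -0.02 (log2), beside -0.03 over all genes, with 16 positive and 19 negative values between -0.54 and 0.41. The PRPS2 KO and Eμ-Myc libraries overlapped for each of the 35 genes, while the groups of 1.53% of all genes did not. The 95% intervals of the 35 genes extended 0.24 to 1.09 to each side, with a median of 0.37. They are not adjusted for the 12535 genes tested, so a call asked for a larger difference than these widths.

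The smallest p-values belonged to Atg2b, Map1lc3a and Gabarap, and none of them passed. Atg2b, which transfers lipid to the growing membrane, was at 13.6, 8.45, 13.7 and 15.1 in Eμ-Myc and at 14.6, 16.8, 17.5 and 18.1 in PRPS2 KO (0.41, SE 0.20, limma adjusted p = 1.00). PRPS2 KO library 1 lay below Eμ-Myc library 4. Map1lc3a was at 32.2, 30.3, 15.2 and 14.3 in PRPS2 KO, against 19.7 to 45.2 in Eμ-Myc (-0.54, SE 0.35, limma adjusted p = 1.00). Gabarap was at 405, 343, 271 and 274 in PRPS2 KO, against 311 to 482 in Eμ-Myc (-0.21, SE 0.19, limma adjusted p = 1.00). Both genes were lower in PRPS2 KO libraries 3 and 4 than in every Eμ-Myc library. Leaving out 1 library gave 0.24 to 0.50 for Atg2b, with 0.24 without Eμ-Myc library 2. For Map1lc3a it gave -0.76 to -0.35, with -0.37 without Eμ-Myc library 2 and -0.35 without PRPS2 KO library 4. Gabarap was at -0.08 without Eμ-Myc library 2, at -0.13 and -0.14 without PRPS2 KO library 3 or 4, and at -0.33 without PRPS2 KO library 1. Of the 69 other autophagy-related genes, and of the markers of each list, 0 were called.

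The 4 PRPS2 KO libraries were not alike, and the result depends on them. Without libraries 1 and 2, 4 autophagy genes were called lower than in Eμ-Myc: Optn (-1.16, limma adjusted p = 0.0145), Wipi1 (-1.10, limma adjusted p = 0.0427), Map1lc3a (-1.07, limma adjusted p = 0.0317) and Atg16l2 (-0.71, limma adjusted p = 0.0152). In that fit 28.5% of all genes were called. Without libraries 3 and 4, 0 autophagy genes and 3.94% of all genes were called. Both choices were made after seeing the data, and each leaves 2 libraries against 4. Libraries 3 and 4 held fewer T-cell, NK, myeloid and plasma-cell markers and more Myc than libraries 1 and 2, as given above. The part of either in these values was not tested.

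**Figure D5:**
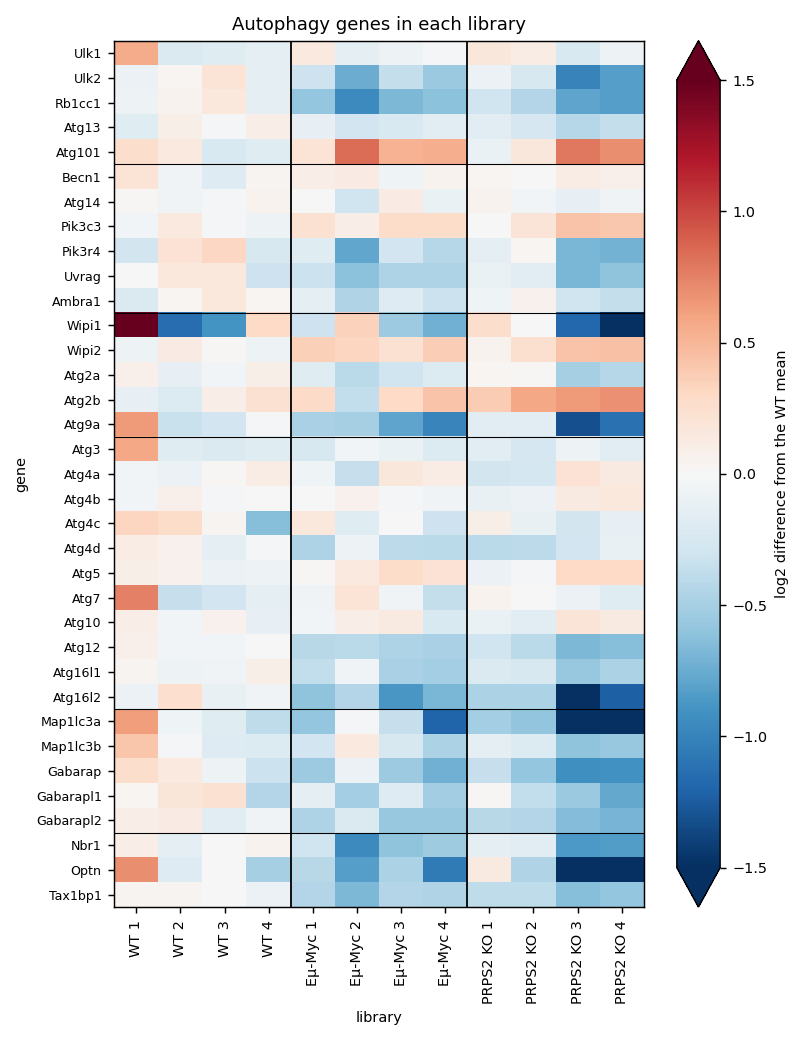
Log2 difference of each of the 35 autophagy genes from its WT mean (colour, clipped at 1.5) in each of the 12 libraries (columns), with genes grouped by role. The blue of Rb1cc1, Atg12, Atg16l2, Tax1bp1 and Nbr1 runs through the Eμ-Myc libraries, Atg101, Wipi2 and Pik3c3 are red in most of them, and PRPS2 KO libraries 3 and 4 show the deepest colours.

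PRPS2 KO samples, which also carry the Myc transgene, differed from WT samples in 9 of the 35 genes (25.7%), 8 lower (22.9%) and 1 higher (2.86%). Over all 12692 genes tested 29.2% were called, 19.7% higher and 9.52% lower. The median over the 35 genes was -0.30, beside -0.01 over all genes. With total coverage as the scaling 9 were called, 0 higher and 9 lower. The groups of 8 autophagy genes lay apart in the lower direction and of 1 in the higher, against 14.9% and 22.2% of all genes and 37.1% in either direction. This comparison and that of Eμ-Myc with WT share the 4 WT libraries, so that their values are given side by side and nothing is drawn from their likeness.

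Tax1bp1 was at 332, 331, 278 and 289 in PRPS2 KO (-0.49 against WT, SE 0.11, limma adjusted p = 0.0229, and -0.50 in Eμ-Myc). Atg12 was at 37.0, 34.3, 28.5 and 29.1 (-0.51, SE 0.12, limma adjusted p = 0.0271, and -0.44 in Eμ-Myc). All 4 PRPS2 KO libraries of both genes were below all 4 WT libraries. Rb1cc1 was at 18.6, 16.8, 13.0 and 12.7 (-0.59, SE 0.17, limma adjusted p = 0.0374, and -0.70 in Eμ-Myc). Atg16l1 was at 88.7, 86.9, 69.5 and 74.2 (-0.37, SE 0.12, limma adjusted p = 0.0488, and -0.36 in Eμ-Myc). Atg16l2 was at 72.0, 71.5, 35.2 and 42.3 (-0.92, SE 0.25, limma adjusted p = 0.0351, and -0.65 in Eμ-Myc). In these 3 genes libraries 3 and 4 were the lowest, and in Atg16l2 the most so. Without libraries 3 and 4, Rb1cc1, Atg16l1 and Atg16l2 were at -0.37, -0.23 and -0.47 (limma adjusted p = 0.172, 0.228 and 0.0715). Without libraries 1 and 2 they were at -0.81, -0.52 and -1.36 (limma adjusted p = 0.00168, 0.00251 and 0.000178). With all libraries, Fchsd2, the antisense neighbour of Atg16l2, fell by 2.19 (log2) in PRPS2 KO against WT (SE 0.56, limma adjusted p = 0.0306).

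The LC3 and GABARAP genes held the largest called fall of the 35 in PRPS2 KO against WT, that of Map1lc3a, at -1.08 (SE 0.34, limma adjusted p = 0.0453), a linear 2.12-fold decrease. Gabarap was at -0.69 (SE 0.19, limma adjusted p = 0.0345) and Gabarapl2, with 60.0, 59.1, 51.0 and 49.5 in PRPS2 KO, at -0.55 (SE 0.12, limma adjusted p = 0.0221). For these 3 genes the groups did not overlap. The value of Map1lc3a depended on the split of the PRPS2 KO libraries. It was at -0.55 without libraries 3 and 4 (limma adjusted p = 0.248) and at -1.61 without libraries 1 and 2 (limma adjusted p = 0.00186). With all libraries, Map1lc3b and Gabarapl1 were at -0.38 (SE 0.18) and -0.42 (SE 0.22) and were not called. Leaving out 1 library gave -0.46 to -0.24 for Map1lc3b and -0.57 to -0.30 for Gabarapl1, which was called in 1 of 8 such fits (limma adjusted p = 0.0485). Both passed without PRPS2 KO libraries 1 and 2 (-0.59 and -0.66, limma adjusted p = 0.0248 and 0.0267). Atg2b was the 1 gene that rose, from 9.55 to 13.0 across WT libraries to 14.6 to 18.1 across PRPS2 KO libraries (0.58, SE 0.16, limma adjusted p = 0.0354). Its value in Eμ-Myc against WT was 0.16, and 0.07 to 0.34 leaving out 1 library. Its antisense neighbour Gskip fell by 0.48 in PRPS2 KO against WT (SE 0.14, limma adjusted p = 0.0376). Optn and Nbr1, which fell in Eμ-Myc, were at -1.01 (SE 0.50, limma adjusted p = 0.135) and -0.50 (SE 0.20, limma adjusted p = 0.0821) in PRPS2 KO. Leaving out 1 library gave -1.39 to -0.66 and -0.62 to -0.38, with each gene called in 1 of 8 fits (limma adjusted p = 0.032 and 0.0302). Both were called without PRPS2 KO libraries 1 and 2 (-1.86 and -0.84, limma adjusted p = 0.00228 and 0.000289). Optn was at 20.7 and 13.7 in libraries 1 and 2 and at 4.11 and 5.66 in libraries 3 and 4.

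Of the marker lists, 4 of 4 platelet markers and 1 of 8 B-cell markers were called in PRPS2 KO against WT, all lower, and 0 of the T-cell, NK, myeloid, erythroid and plasma-cell markers. The missing calls do not show that those markers were alike in both groups. All 9 T-cell and 6 of 6 NK markers had lower means than in WT, with median log2 fold changes of -3.20 and -2.53, and 7 and 2 of them had an unadjusted p under 0.05 (limma, smallest adjusted p = 0.0811 and 0.076). The median of the 9 myeloid markers was -1.15, with 7 negative and 0 at an unadjusted p under 0.05. The T-cell, NK, myeloid and plasma-cell sums were split between PRPS2 KO libraries 1 and 2 and libraries 3 and 4, as given above.

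None of the 9 calls in autophagy genes held in all alternatives. On simulated data, with noise drawn independently for each gene and no split between libraries, the share of false calls exceeded the threshold in this comparison. The count was 0 without WT library 1, 2 or 3, where 7.10%, 4.88% and 4.77% of all genes were called, and 0 without PRPS2 KO library 3 or 4, where 6.72% and 6.17% were. It was 3 without WT library 4 (9.95% of all genes) and 16 without PRPS2 KO library 1 (53.1%). Without PRPS2 KO library 2 it was 7, although more of all genes, 33.5%, were called than the 29.2% with all libraries. It was 0 without WT libraries 1 and 4 (0.0315% of all genes), 0 without PRPS2 KO libraries 3 and 4 (11.3%), and 24 (5 higher, 19 lower, with 69.7% of all genes called) without PRPS2 KO libraries 1 and 2. Of the 69 other autophagy-related genes 15 (21.7%) were called, 5 higher and 10 lower. Retreg1 was among them (-1.81, limma adjusted p = 0.0197), in a call lost without any 1 WT library (limma adjusted p up to 0.0608), and so was Phb2 (1.13, limma adjusted p = 0.025), in a call lost in 6 of 16 alternatives (limma adjusted p up to 0.0724). The 19 pathway genes named by rule were picked from the calls in Eμ-Myc against WT, which uses the same WT libraries. Of these, 11 were called here, so nothing is drawn from that count, and none of those calls held in all alternatives. Bcl2 was at 32.1, 28.7, 2.44 and 2.44 in PRPS2 KO libraries 1 to 4, the same split between the pairs of libraries.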

How the data were processed

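Polyadenylated RNA of splenic B lymphocytes was prepared with a directional kit, per the labels. For each library the authors deposited 1 file listing coverage by gene symbol, a signal with 1 decimal, and 91.6% of values above 0 were not whole. The build is mm10, and DESeq and R 4.3.3 are named without a role, per the submitters' processing notes. The aligner, the counting step and the annotation are not given in the sources used here. The values are not counts, the read depth is unknown, and no counting interval is given.

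The 12 libraries were scaled with unweighted trimmed means of log ratios (30% of ratios and 5% of means trimmed at each end). A gene was tested if 4 or more of the 8 libraries compared had a scaled coverage of 1 or more. limma 3.58.1 (R 4.3.3, trended prior, robust empirical Bayes, two-sided) was fitted to log2(scaled coverage + 0.5), so fold changes of low genes are understated. A gene was called at an adjusted p under 0.05 (Benjamini-Hochberg, over every gene tested). Each p-value sets the difference between groups against the spread between libraries, moderated over genes. Whether that is a spread between mice is not known. The fit was tested on simulated data. There the share of false calls stayed under the threshold in Eμ-Myc against WT and exceeded it in both comparisons with PRPS2 KO. The simulation drew the noise of each gene independently and changed far fewer genes than were called in Eμ-Myc against WT. It holds no split between libraries, so it does not give the share of false calls in these data.

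The 35 genes and the other lists were chosen with earlier results of these data known. By rule, the text gives library values for called genes with a log2 fold change of at least 0.8 and for the LC3 and GABARAP genes, the 3 smallest p-values where nothing was called, and up to 3 called genes per direction of each other list. Alternatives were other scalings, filters and pseudocounts, all 12 libraries in 1 fit, a replicate block and leaving out libraries. Same-numbered PRPS2 KO and Eμ-Myc libraries deviated together (correlations of 0.187 to 0.639). Libraries of unlike number were not correlated, so these values do not show a pairing, and the labels state none. Python 3.11.15 with pandas 2.3.3, numpy 2.4.6 and matplotlib 3.10.9 made tables and figures. Promoters and positions are from RefSeq (GRCm38.p6), and exon overlaps from GENCODE M21.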

Additional observations from a re-analysis of the deposited data

Results flagged for a closer look

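In 5 of 105 groups of 4 libraries (35 genes in 3 groups) 1 library stood far from the other 3, beyond Dixon's critical value at 95%, and chance gives about 5.25. WT library 1 was high for 3 of them. Ulk1 was at 51.3 there against 29.9 to 31.3 in the other WT libraries, Atg3 at 275 against 158 to 162, and Atg7 at 104 against 48.3 to 55.8. Atg16l2 was at 119 in WT library 2 against 92.3 to 96.3. Tax1bp1 was at 270 in Eμ-Myc library 2 against 316 to 318. Ulk1, Atg3 and Atg7 were not called in any comparison, and Atg16l2 and Tax1bp1 kept their calls in Eμ-Myc against WT without those libraries.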

How the results depend on the processing

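In Eμ-Myc against WT the count of called autophagy genes was 15 (55.2% of all genes). It was 19 with median-of-ratios scaling (55.8%) and 21 with total coverage (57.4%). With no filter it was 13 (40.0%), and at a minimum of 10 in every library 15 of 30 (59.3%). A pseudocount of 0.1 or 2 gave 15 (55.0% and 55.1%). With all 12 libraries in 1 fit it was 10 (43.0%), without Ulk2, Atg101, Atg9a, Gabarap and Optn. It was 9 to 15 leaving out 1 library (46.6% to 55.1%). Total coverage moved the median of all genes to -0.19 and that of the autophagy genes to -0.46. Of the 35 genes 29 were lower and 3 higher under all 3 scalings; Becn1 (-0.01 and -0.13), Atg2b (-0.01) and Atg5 (-0.02) turned negative under median of ratios or total coverage. None of the genes that turned sign was called. Leaving out 1 library gave Ulk1 -0.09 to 0.16, Wipi1 -0.69 to 0.27, Atg3 -0.22 to 0.05, Atg4c -0.30 to 0.02, Atg7 -0.18 to 0.19, Atg10 -0.06 to 0.06, Becn1 -0.01 to 0.12, Atg14 -0.13 to 0.01 and Atg4a -0.10 to 0.08. Without WT libraries 1 and 4, Ulk1 was at 0.18, Wipi1 at 0.71, Atg3 at 0.06 and Atg7 at 0.25.

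In PRPS2 KO against Eμ-Myc the count was 0 in every alternative, that without PRPS2 KO libraries 3 and 4 (Gabarap at 0.01) included, except for 4 without libraries 1 and 2. In PRPS2 KO against WT it was 9 (29.2% of all genes), 6 with no filter (17.3%) and 11 with all 12 libraries (47.1%). Leaving out 1 library it was 0 to 16 (4.77% to 53.1%). It was 0 without WT libraries 1 and 4 (0.0315%) or PRPS2 KO libraries 3 and 4 (11.3%), and 24 without PRPS2 KO libraries 1 and 2 (69.7%). The cause was not tested.

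With the replicate number as a block, 14 genes were called in Eμ-Myc against WT (56.5% of all genes; Atg4d lost, limma adjusted p = 0.0529), 4 in PRPS2 KO against WT (14.7%) and 0 in PRPS2 KO against Eμ-Myc. Same-numbered libraries deviated by correlations of 0.225, -0.098, 0.251 and 0.128 (replicates 1 to 4) in Eμ-Myc with WT. In PRPS2 KO with WT they were 0.391, -0.409, 0.136 and -0.063. Both comparisons fell short of a minimum of 0.1 set for every pair, for Eμ-Myc with WT only at replicate 2. Libraries of unlike number were not correlated, so a pairing is not established in any comparison. The unknown read depth and 4 libraries per group limit precision.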

Other observations

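The libraries of a group differed in how many of the 35 genes they headed. WT library 1 was the highest of its group for 17 genes and WT library 4 the lowest for 13. PRPS2 KO library 1 was the highest of its group for 22 genes and library 3 the lowest for 16. Of the 35 genes, 23 lay below the lowest WT library in PRPS2 KO library 3 and in Eμ-Myc library 4, against 12 in PRPS2 KO library 1. The same counts were not taken over all genes. They therefore describe the libraries and are not read as a trait of the autophagy genes.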
